A study of Mus musculus with 12 samples.

Results

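The genes of triglyceride synthesis and glyceroneogenesis described here were Gpam, Agpat2, Lpin1, Dgat1, Dgat2, Mogat1, Gpd1, Pck1 and Aqp7. They were chosen by symbol, through their mouse Ensembl identifiers, and all 9 were found among the 23474 genes of the deposited expression table. Transcript levels were given as FPKM, which are fragments scaled to transcript length and library depth, in epididymal white fat (eWAT) from male C57BL/6J mice. Each of 4 groups had 3 libraries. From 5 weeks of age, for 12 weeks, the ND group received a normal diet and the HFD group a high-fat diet. The GT group received the same high-fat diet with 0.25% (w/w) of an ethanol extract of green tea, and the TJ group the high-fat diet with 3% (w/w) Taeeumjowuitang (TJ), a Korean herbal medicine made of water extracts from several plants. All mice were 17 weeks old at sampling, so GT and TJ mice had eaten the high-fat diet for as long as HFD mice, and each extract was given at a single dose. By the methods, which describe the HFD and TJ mice, sampling followed a 12-h fast. The methods state that HFD and TJ tissue came from 3 randomly selected mice per group, whereas for ND and GT the labels name separate samples without saying how many mice were in each. The p-values measure the spread between these samples.

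Adipocytes store fatty acids as triglycerides by adding them, one after another, to a glycerol 3-phosphate backbone. Gpam attaches the first fatty acid, Agpat2 the next, the phosphatidate phosphatase Lpin1 removes the phosphate, and Dgat1 or Dgat2 adds the last fatty acid to the resulting diacylglycerol, which Mogat1 can also make from monoacylglycerol. White adipocytes have little glycerol kinase and make the backbone from glucose through Gpd1, or from pyruvate and amino acids by glyceroneogenesis, for which Pck1 is the key enzyme, while Aqp7 lets the glycerol released by lipolysis leave the cell.

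Pck1, Mogat1 and Aqp7 were the members that stood higher in all GT and all TJ libraries than in any HFD library and lower in all HFD libraries than in ND replicates 2 and 3, so the sequences before their start sites are shown. Of the 9 genes, 6 had entries among the RefSeq promoter windows (GRCm38.p6), which run from 250 bases before to 50 bases after a transcription start. Capitals mark the letters of searched motifs. The Pck1 window lies on the plus strand at chr2:173152823-173153122, the Mogat1 window on the plus strand at chr1:78510810-78511109 and the Aqp7 window on the minus strand at chr4:41048087-41048386.
Pck1: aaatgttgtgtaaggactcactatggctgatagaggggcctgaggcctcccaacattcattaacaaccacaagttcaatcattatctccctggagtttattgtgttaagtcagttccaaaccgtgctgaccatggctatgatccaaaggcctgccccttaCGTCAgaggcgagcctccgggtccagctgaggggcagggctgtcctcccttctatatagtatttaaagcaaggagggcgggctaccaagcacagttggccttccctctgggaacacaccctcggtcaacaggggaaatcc
Mogat1: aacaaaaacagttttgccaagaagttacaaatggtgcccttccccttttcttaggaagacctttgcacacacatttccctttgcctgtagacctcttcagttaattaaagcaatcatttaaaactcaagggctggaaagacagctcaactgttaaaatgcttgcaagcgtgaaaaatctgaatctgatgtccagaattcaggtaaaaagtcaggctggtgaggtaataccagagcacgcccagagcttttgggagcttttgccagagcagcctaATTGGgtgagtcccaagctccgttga
Aqp7: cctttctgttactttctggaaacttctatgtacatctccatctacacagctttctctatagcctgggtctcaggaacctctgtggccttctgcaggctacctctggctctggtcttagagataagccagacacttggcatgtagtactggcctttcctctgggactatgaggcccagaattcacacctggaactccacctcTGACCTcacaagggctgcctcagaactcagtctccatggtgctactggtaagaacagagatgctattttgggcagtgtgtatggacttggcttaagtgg
The Pck1 window held the cAMP response half-site TGACG once, read on the opposite strand as CGTCA, at position -90 from the start. The motif was in 20.81% of all 32851 windows of this length, either strand counted. The Aqp7 window held the nuclear receptor half-site AGGTCA once, on the opposite strand at position -49, against 16.26% of all windows. A further Aqp7 start in RefSeq had a window that overlaps this one. It held the same site, at position -223 from that start, and 1 more such half-site at position -101. The Mogat1 window held CCAAT, on the opposite strand at position 25, a motif of 37.41% of all windows. Members with other patterns held the same motifs. The Lpin1 window held AGGTCA at position -74, and of the pair of Gpam windows one held CCAAT at position -74 and the other AGGTCA at position -196 and TGACG at positions -31 and -9. Neither TATAAA (13.62% of all windows) nor the E-box CACGTG (7.15%) was found in the 8 windows of these 6 genes. These matches describe letters, and no binding was measured.

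The tissue label was checked against marker genes, and a single library stood apart. In ND replicate 1 the summed level of 10 adipocyte markers was 3953 FPKM, against 16089 to 59029 FPKM in the other 11 libraries, while 10 testis germ cell markers summed to 98962 FPKM and 9 epididymis markers to 14204 FPKM. The germ cell markers also reached 2965 FPKM in ND replicate 3 and 2048 FPKM in HFD replicate 1, and the epididymis markers 1291 FPKM in HFD replicate 2. Every comparison of the 9 genes with ND is therefore given with and without ND replicate 1. Among the other libraries the adipocyte markers summed to 16089 to 18708 FPKM in HFD, 23202 to 26399 FPKM in GT and 28679 to 59029 FPKM in TJ, so that these sums did not overlap. Fabp4 made up most of each sum, for example 28658 of 35986 FPKM in TJ replicate 1. By the mean log2 level of the same 10 markers, HFD (8.31 to 8.38) was below GT (8.75 to 9.28) and TJ (9.02 to 9.58), and GT and TJ overlapped. The 10 macrophage markers moved the other way, from 3824 to 5388 FPKM in HFD to 1402 to 3422 FPKM in GT and 750.0 to 2562 FPKM in TJ, with 441.8 and 564.7 FPKM in ND replicates 3 and 2. The 4 endothelial markers summed to 250.2 to 269 FPKM in HFD, 279.6 to 366 FPKM in GT and 402 to 616 FPKM in TJ. Cldn5 alone was at 87.2 to 106 FPKM in HFD and 226 to 383 FPKM in TJ. Cdh5 was also higher in every TJ library than in any HFD library, while Pecam1 and Tek overlapped between HFD and TJ. No adipocyte, macrophage or endothelial marker was at 0 in any library, of the germ cell markers Gapdhs was at 0 in all 12, and none of the 9 genes belongs to a marker list. In bulk tissue, fewer cells of a type and less RNA per cell cannot be told apart, and the part of cell composition in the results was not tested beyond setting each member against the adipocyte markers. Approximate depths were 10.0M to 19.5M fragments per library.

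Levels were compared with limma on log2(FPKM + 1), log2 fold changes and SE are on that scale, and values given as -fold are ratios of mean FPKM. A gene passed the test, and is called a DEG, if its p-value, adjusted over all tested genes, was under 0.05 and its fold change 1.5 or more.

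**Figure D1:**
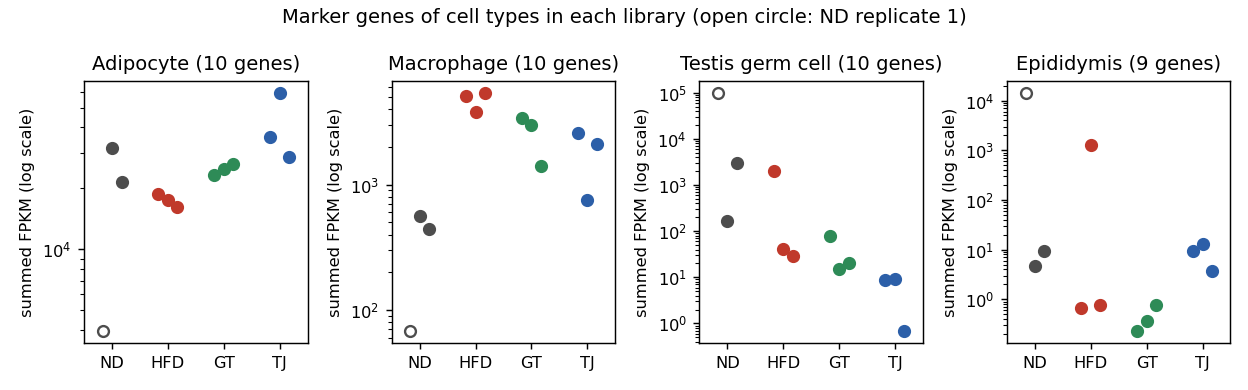
Summed FPKM (log axis) of the marker genes of 4 cell types in each of the 12 libraries, by diet group, with ND replicate 1 as an open circle. ND replicate 1 had 98962 FPKM of testis germ cell markers and 3953 FPKM of adipocyte markers, whereas adipocyte markers were 16089 FPKM or more in every other library.

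Pck1 had the widest range of the 9 genes. Pck1 (ENSMUSG00000027513) lies on chromosome 2 from 173153048 to 173159273 of GRCm38 and encodes cytosolic phosphoenolpyruvate carboxykinase. It was at 77.2, 2129.8 and 1954 FPKM in ND replicates 1 to 3, at 266, 246 and 227 FPKM in HFD, at 444, 819 and 980.2 FPKM in GT and at 940.3, 1626 and 818 FPKM in TJ. The 3 HFD libraries were close together and below every GT and TJ library, ND replicates 2 and 3 were above all others, and GT and TJ overlapped. Pck1 rose 4.58-fold in the mean from HFD (246 ± 19.9 FPKM, SD, n = 3) to TJ (1128 ± 435 FPKM, SD, n = 3), with a log2 fold change of 2.13 (SE 0.26, adjusted p = 0.0196 in limma). It rose 3.04-fold to 748 ± 275 FPKM (SD, n = 3) in GT, with a log2 fold change of 1.53 (SE 0.28, adjusted p = 0.0411). TJ and GT did not differ beyond their spread (log2 fold change 0.60, SE 0.37, adjusted p = 0.313). With ND replicate 1 left out, the ND mean was 8.29-fold above HFD, at 2042 ± 124 FPKM (SD, n = 2), and Pck1 fell by 3.05 on the log2 scale from ND to HFD (SE 0.13, adjusted p = 0.000735). With that library included the log2 fold change was -1.48 (SE 1.31, adjusted p = 0.571).

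Aqp7 separated the 3 groups on the high-fat diet without overlap. Aqp7 (ENSMUSG00000028427, chromosome 4 from 41033074 to 41048139), the glycerol channel of adipocytes, was at 60.4, 126 and 99.9 FPKM in ND, at 79.1, 70.3 and 73.5 FPKM in HFD, at 123, 127 and 134 FPKM in GT and at 148, 173 and 162 FPKM in TJ. The order was HFD, then GT, then TJ, and ND replicates 2 and 3 lay between HFD and TJ. Aqp7 rose 1.72-fold from 74.3 ± 4.47 FPKM in HFD to 128 ± 5.88 FPKM in GT (SD, n = 3 each), with a log2 fold change of 0.78 (SE 0.09, adjusted p = 0.0300). It rose 2.16-fold to 161 ± 12.3 FPKM (SD, n = 3) in TJ, with a log2 fold change of 1.10 (SE 0.13, adjusted p = 0.0196). The step from GT to TJ did not pass, at a log2 fold change of 0.33 (SE 0.14, adjusted p = 0.199). Without ND replicate 1, Aqp7 fell by 0.59 on the log2 scale from ND to HFD (SE 0.14, adjusted p = 0.0499). With ND replicate 1, which was below all HFD libraries, the log2 fold change was -0.30 (SE 0.35, adjusted p = 0.662).

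Gpd1 showed another pattern. Gpd1 (ENSMUSG00000023019, chromosome 15 from 99717515 to 99725005), the cytosolic glycerol 3-phosphate dehydrogenase, was at 8.07, 12.5 and 6.85 FPKM in ND, at 33.1, 21.7 and 21.2 FPKM in HFD, at 34.9, 22.4 and 20.2 FPKM in GT and at 31.7, 22.8 and 25.1 FPKM in TJ. All 9 libraries of mice on the high-fat diet were above all 3 ND libraries, and HFD, GT and TJ overlapped fully. Gpd1 rose 2.63-fold from ND to HFD without ND replicate 1 (log2 fold change 1.33, SE 0.31, adjusted p = 0.0467), and with it the log2 fold change was 1.39 (SE 0.35, adjusted p = 0.158). The difference from HFD was 0.02 on the log2 scale in GT (SE 0.25, adjusted p = 0.972) and 0.08 in TJ (SE 0.21, adjusted p = 0.788). Exons of Gpd1 overlap those of Gm16537, an antisense gene that has no row in the table. No strand setting is given for the authors' quantification, so reads of overlapping genes cannot be told apart.

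**Figure D2:**
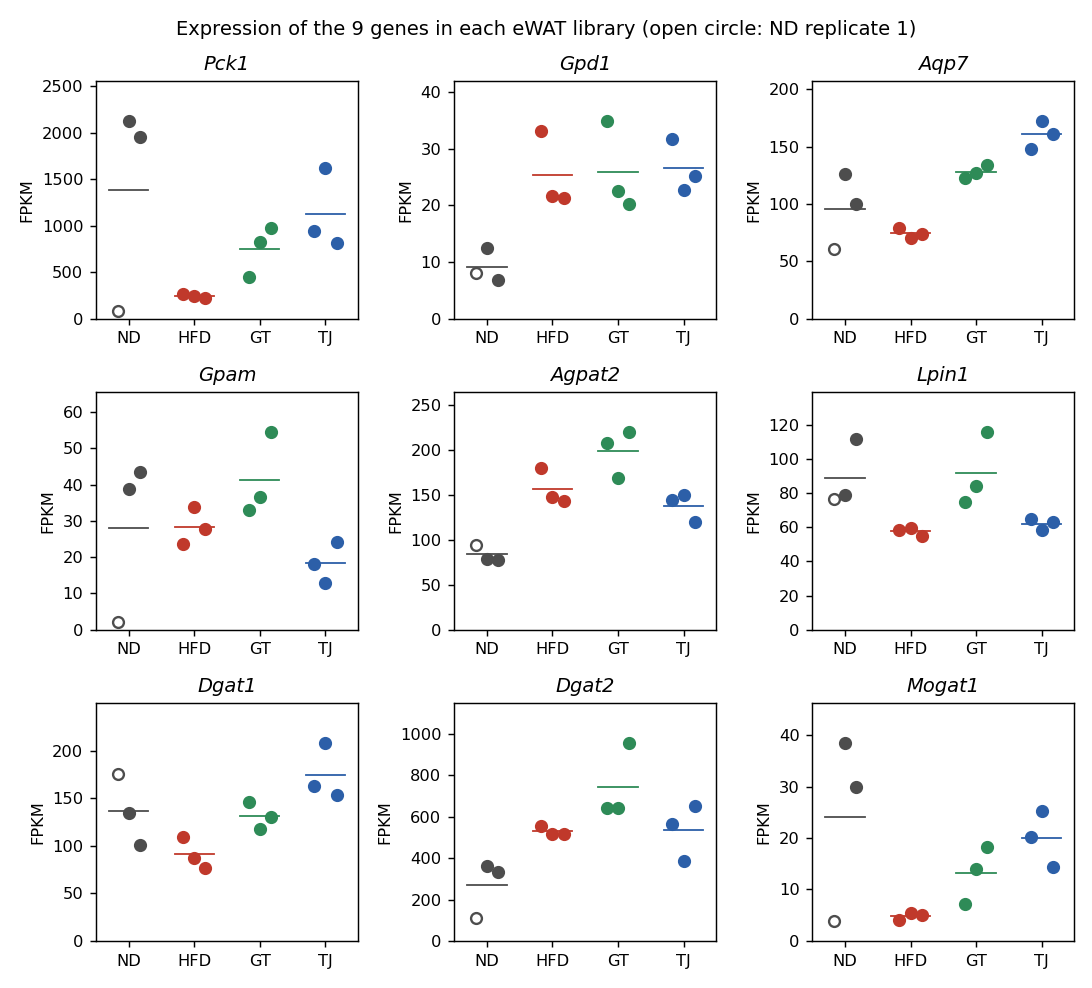
FPKM of the 9 genes in each library by diet group on linear axes that start at 0, with horizontal lines at group means and ND replicate 1 as an open circle. Pck1, Mogat1 and Aqp7 were lowest in HFD among the libraries other than ND replicate 1, Gpd1 was 6.85 to 12.5 FPKM in ND and 20.2 FPKM or more elsewhere, and ND replicate 1 was far below its group for Gpam, Pck1, Mogat1 and Dgat2.

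Gpam, the mitochondrial acyltransferase of the first step, had its lowest mean in TJ, but no comparison passed the test. Gpam (ENSMUSG00000024978, chromosome 19 from 55067268 to 55127238) was at 2.25, 38.9 and 43.4 FPKM in ND, at 23.5, 33.9 and 27.6 FPKM in HFD, at 33.0, 36.6 and 54.5 FPKM in GT and at 18.2, 12.9 and 24.3 FPKM in TJ. All TJ libraries were below all GT libraries and below ND replicates 2 and 3, and TJ replicate 3 overlapped the HFD range. The log2 fold change was -1.13 for TJ against GT (SE 0.27, adjusted p = 0.105) and -0.62 for TJ against HFD (SE 0.24, adjusted p = 0.103). It was 0.51 for GT against HFD (SE 0.21, adjusted p = 0.168). Against ND, 1 library set the direction. For HFD against ND, the log2 fold change was 0.70 (SE 1.04, adjusted p = 0.725) with ND replicate 1 and -0.53 (SE 0.18, adjusted p = 0.116) without it.

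Agpat2, whose loss causes lipodystrophy, was higher on every high-fat diet than on the normal diet. Agpat2 (ENSMUSG00000026922, chromosome 2 from 26593057 to 26604417) was at 94.6, 78.5 and 77.9 FPKM in ND, at 179, 148 and 143 FPKM in HFD, at 208, 169 and 220.0 FPKM in GT and at 145, 149 and 120 FPKM in TJ. The 9 libraries of high-fat diet mice were all above the 3 ND libraries, ND replicate 1 included, and HFD overlapped with GT and with TJ. Without ND replicate 1, Agpat2 rose from 78.2 ± 0.45 FPKM (SD, n = 2) in ND to 157 ± 19.6 FPKM (SD, n = 3) in HFD (log2 fold change 0.99, SE 0.14, adjusted p = 0.0105), and with it the log2 fold change was 0.90 (SE 0.27, adjusted p = 0.250). TJ lay below GT without overlap, at a log2 fold change of -0.52 (SE 0.17, adjusted p = 0.143). Exons of Agpat2 overlap those of Egfl7 on the opposite strand, a gene of endothelial cells at 74.6 to 121 FPKM in HFD and 237 to 433 FPKM in TJ, and its share in the reads of Agpat2 was not tested.

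Lpin1 was lowest in HFD and TJ. Lpin1 (ENSMUSG00000020593, chromosome 12 from 16535669 to 16610966) was at 76.3, 78.6 and 112 FPKM in ND, at 58.5, 59.5 and 55.0 FPKM in HFD, at 74.4, 84.0 and 116 FPKM in GT and at 64.6, 58.6 and 63.2 FPKM in TJ. ND and GT libraries were all above HFD and TJ libraries, and the latter groups overlapped. None of these differences passed the test. The log2 fold change was -0.69 for HFD against ND without ND replicate 1 (SE 0.17, adjusted p = 0.0557) and -0.59 with it (SE 0.28, adjusted p = 0.494). It was 0.63 for GT against HFD (SE 0.17, adjusted p = 0.0697) and 0.11 for TJ against HFD (SE 0.12, adjusted p = 0.504). The GT value passed without GT replicate 1, at 0.77 (adjusted p = 0.0412).

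The enzymes of the last step differed in their levels across the diets. Dgat1 (ENSMUSG00000022555, chromosome 15 from 76502015 to 76511953) was at 176, 134 and 101 FPKM in ND, at 110, 87.0 and 76.7 FPKM in HFD, at 146, 117 and 130 FPKM in GT and at 163, 208 and 154 FPKM in TJ. All TJ libraries were above all GT libraries, and these above all HFD libraries, while ND overlapped with each of them. Dgat1 rose 1.92-fold from 91.1 ± 16.8 FPKM in HFD to 175 ± 29.2 FPKM in TJ (SD, n = 3 each), with a log2 fold change of 0.94 (SE 0.19, adjusted p = 0.0278). GT was at 131 ± 14.4 FPKM (SD, n = 3), with a log2 fold change of 0.53 against HFD (SE 0.15, adjusted p = 0.0874). The difference between TJ and GT did not pass (log2 fold change 0.41, SE 0.17, adjusted p = 0.200). HFD against ND gave -0.36 without ND replicate 1 (SE 0.21, adjusted p = 0.313) and -0.56 with it (SE 0.33, adjusted p = 0.495).

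Dgat2 (ENSMUSG00000030747, chromosome 7 from 99153658 to 99182719), an enzyme unrelated to Dgat1 in sequence, was at 112, 363 and 335 FPKM in ND, at 555, 516 and 518 FPKM in HFD, at 640.0, 641 and 956 FPKM in GT and at 565, 386 and 651 FPKM in TJ. All libraries of high-fat diet mice exceeded all ND libraries, GT exceeded HFD without overlap, and TJ overlapped both. Dgat2 rose 1.52-fold from ND to HFD without ND replicate 1 (log2 fold change 0.60, SE 0.11, adjusted p = 0.0243), and with it the log2 fold change was 1.15 (SE 0.53, adjusted p = 0.485). The log2 fold change was 0.47 for GT against HFD (SE 0.17, adjusted p = 0.131) and -0.02 for TJ against HFD (SE 0.21, adjusted p = 0.944).

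The Dgat2 level divided by the Dgat1 level, both per transcript length, was 0.64, 2.71 and 3.32 in ND, 5.07, 5.93 and 6.75 in HFD, 4.38, 5.46 and 7.37 in GT and 3.48, 1.85 and 4.23 in TJ. HFD ratios were above all ND and all TJ ratios, and GT ratios were on both sides of the HFD range. The ratio was higher in HFD than in ND by 1.72 on the log2 scale, and by 0.97 with ND replicate 1 left out. From HFD to TJ it differed by -0.97. With all 3 libraries a group, the two-sided exact permutation p was 0.1 for each comparison, the smallest that 3 against 3 can give. Without ND replicate 1 it was 0.2, the smallest for 3 against 2, so these differences cannot pass 0.05.

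**Figure D3:**
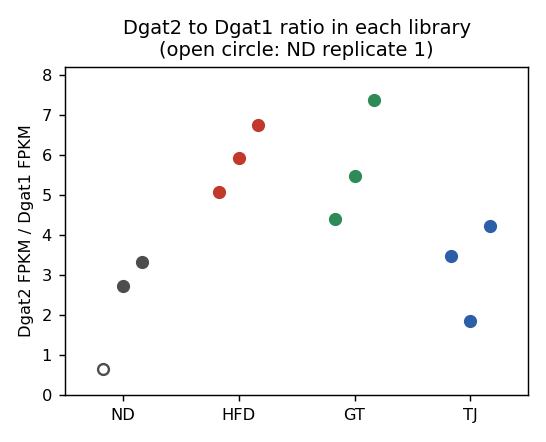
Ratio of Dgat2 FPKM to Dgat1 FPKM in each library by diet group on a linear axis from 0, with ND replicate 1 as an open circle. The HFD ratios of 5.07 to 6.75 were above the ND ratios of 0.64 to 3.32 and the TJ ratios of 1.85 to 4.23, and the GT ratios ranged from 4.38 to 7.37.

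Mogat1 moved like Pck1 at a far lower level. Mogat1 (ENSMUSG00000012187, chromosome 1 from 78510991 to 78538173), a monoacylglycerol acyltransferase, was at 3.95, 38.5 and 30.0 FPKM in ND, at 4.08, 5.44 and 4.98 FPKM in HFD, at 7.14, 14.0 and 18.2 FPKM in GT and at 20.1, 25.3 and 14.3 FPKM in TJ. ND replicates 2 and 3 were above all other libraries, ND replicate 1 was the lowest of all 12, GT and TJ overlapped, and both were above HFD. Mogat1 rose 4.12-fold from 4.83 ± 0.69 FPKM in HFD to 19.9 ± 5.51 FPKM in TJ (SD, n = 3 each), with a log2 fold change of 1.81 (SE 0.22, adjusted p = 0.0196). GT was at 13.1 ± 5.58 FPKM (SD, n = 3), with a log2 fold change of 1.19 against HFD (SE 0.30, adjusted p = 0.0668), and TJ against GT gave 0.62 (SE 0.33, adjusted p = 0.271). Without ND replicate 1, Mogat1 fell by 2.59 on the log2 scale from ND to HFD (SE 0.18, adjusted p = 0.00158). With it, the log2 fold change was -1.65 (SE 0.81, adjusted p = 0.494). These fold changes are on log2(FPKM + 1), which understates the change of low genes such as this one. Its lowest value rested on about 48 fragments. Exons of Mogat1 overlap those of BC035947 on the opposite strand, which was at 0.27 to 0.41 FPKM in HFD and 1.06 to 1.59 FPKM in TJ.

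Counted over the 9 genes, the comparison of HFD with ND turned on the library that stood apart. With all 3 ND libraries, 0 of 9 genes were DEGs between HFD and ND in limma, against 1.77% of all 14430 tested genes. An unadjusted p-value under 0.05 in limma was reached by 2 of the 9, Agpat2 and Gpd1, and by 1672 of all tested genes. For 4 of 9 genes HFD and ND did not overlap, as for 26.4% of tested genes. Without ND replicate 1, Agpat2, Dgat2 and Gpd1 were upregulated and Pck1, Mogat1 and Aqp7 downregulated in HFD. These 6 of 9 compare with 15.4% of tested genes, and 8 of 9 members did not overlap, against 47.2%. The median log2 fold change of the 9 genes was then -0.53, beside -0.02 for all tested genes. When the remaining 11 libraries shared 1 estimate of the spread, a choice made after seeing the data, 6 were again DEGs, with Lpin1 among them (adjusted p = 0.0335) and without Dgat2, and 2656 of all tested genes were DEGs.

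In GT against HFD, Pck1 and Aqp7 were upregulated, 2 of 9 against 3.63% of the 12766 tested genes, and 0 were downregulated. The groups did not overlap for 6 of 9 genes, all higher in GT, against 36.7% of tested genes, and the median log2 fold change was 0.53 beside -0.12 for all tested genes. Without GT replicate 1, 4 members were DEGs, with Lpin1 and Mogat1 added, and the DEGs among all tested genes went from 464 to 1107. Only Aqp7 remained without HFD replicate 1, when 66 of all tested genes were DEGs. Without GT replicate 2, GT replicate 3, HFD replicate 2 or HFD replicate 3, 0 of 9 passed, and 4 to 7 of all tested genes were DEGs. In these fits 5 to 7 members had an unadjusted p-value under 0.05 in limma, as had 2466 to 3032 of all tested genes. The count of DEGs was also 0 of 9 with the replicate number as a block, without a filter on low values and with all 12 libraries in the fit. Of all tested genes, 5, 5 and 1 were then DEGs. There, 8, 6 and 2 members had an unadjusted p-value under 0.05 in limma, as had 3524, 4194 and 543 of all tested genes. Over 15 alternatives, Pck1 lost its call in 9 and Aqp7 in 7.

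In TJ against HFD, Pck1, Mogat1, Aqp7 and Dgat1 were upregulated. These 4 of 9 compare with 18.5% of the 12807 tested genes, and for the same 4 genes the groups did not overlap, against 51.5%. The median log2 fold change was 0.11 beside -0.14 for all tested genes, and 0 members were downregulated. When any of the 3 HFD libraries or TJ replicate 1 was left out, 0 of 9 passed in limma. Unadjusted p-values under 0.05 were then reached by 4 or 5 members and by 3732 to 4735 of all tested genes. In those fits 0 of all tested genes passed, and the adjusted p of Pck1 was 0.0512, 0.0808 and 0.110 without HFD replicates 1 to 3 and 0.0596 without TJ replicate 1. With all 12 libraries in the fit, 0 of 9 members and 1 of all tested genes passed. An unadjusted p-value under 0.05 in limma was reached by 3 members and by 2183 of all tested genes. Without TJ replicate 3, 5 members passed, with Gpam downregulated (log2 fold change -0.83, adjusted p = 0.0414), and 3412 of all tested genes were DEGs, against 2366 with all 6 libraries. GT and TJ were both set against the same 3 HFD libraries, so their results are not independent of each other.

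The direct comparison of TJ with GT gave 0 DEGs among the 9 genes, against 0.148% of 12187 tested genes. In limma, 5 of the 9 had an unadjusted p-value under 0.05, as had 2996 of all tested genes. The groups did not overlap for Dgat1 and Aqp7, higher in TJ, and for Gpam, Agpat2 and Lpin1, higher in GT, which were 5 of 9 against 34.4% of tested genes. When 11 libraries shared the spread, Gpam was downregulated in TJ relative to GT (adjusted p = 0.0459), as 1 of 247 DEGs among all tested genes.

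TJ against ND also gave 0 of 9 DEGs with ND replicate 1, against 0% of 14251 tested genes, and 0 of 9 without it, against 0% of 13314. In these limma fits 1 and 7 members had an unadjusted p-value under 0.05, as had 1532 and 3163 of all tested genes. Without ND replicate 1 the groups did not overlap for 9 of 9 genes, 5 higher and 4 lower in TJ, against 48.7% of tested genes, and with it for 5 of 9, against 26.1%. Pck1 and Mogat1 in TJ were below both remaining ND libraries, at log2 fold changes of -0.92 (SE 0.35, adjusted p = 0.190) and -0.78 (SE 0.28, adjusted p = 0.180). With ND replicate 1 the signs turned, to 0.65 for Pck1 (SE 1.32, adjusted p = 0.842) and 0.16 for Mogat1 (SE 0.81, adjusted p = 0.942). Gpd1 and Agpat2 were above them, at 1.41 (SE 0.29, adjusted p = 0.125) and 0.80 (SE 0.20, adjusted p = 0.135), and with ND replicate 1 at 1.47 (SE 0.35) and 0.71 (SE 0.32), each at an adjusted p of 0.446. With the 11 libraries in 1 fit, Agpat2 and Gpd1 were upregulated and Gpam downregulated in TJ relative to ND, and 2217 of all tested genes were DEGs.

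The mean log2 level of the adipocyte markers moved in the same comparisons, and each member was set against it by subtracting this mean in each library. Not every marker followed the mean. Cebpa was at -0.32 on the log2 scale in GT against HFD and at 0.32 in HFD against ND without ND replicate 1. The marker mean was higher in TJ than in HFD by 0.88 and in GT than in HFD by 0.66, and the difference between HFD and ND replicates 2 and 3 was -0.92, each without overlap. Relative to the markers, Pck1 and Mogat1 were still higher in every TJ library than in every HFD library, by 1.25 and 0.93 on the log2 scale. Aqp7 and Dgat1, which also rose, differed by 0.22 and 0.05 relative to the markers, and the groups overlapped. Gpam, Agpat2, Dgat2, Gpd1 and Lpin1 were lower in TJ relative to the markers without overlap, with differences of -1.50, -1.07, -0.90, -0.80 and -0.78. In GT, Pck1 was higher than in HFD by 0.87 relative to the markers without overlap, whereas Mogat1, at 0.54, and Aqp7, at 0.12, overlapped. Dgat2, whose FPKM were higher in every GT library than in any HFD library, was lower relative to the markers without overlap, at -0.19. Gpd1, Agpat2, Gpam, Dgat1 and Lpin1 were at -0.64, -0.32, -0.15, -0.13 and -0.027, with overlap. From ND replicates 2 and 3 to HFD, Pck1 and Mogat1 were lower relative to the markers, with differences of -2.13 and -1.67, and Gpd1, Agpat2 and Dgat2 were higher by 2.25, 1.90 and 1.52. The sign of 4 members turned from lower to higher, namely Dgat1, at 0.55, and Aqp7, at 0.33, both without overlap, and Gpam, at 0.38, and Lpin1, at 0.23, with overlap. This depended on ND replicate 1. With it, the marker mean differed by 0.17 between HFD and ND with overlap, and Dgat1, Aqp7 and Lpin1 were at -0.73, -0.46 and -0.76 and Gpam at 0.53 relative to the markers, all with overlap. Pck1 and Mogat1 were then at -1.65 and -1.82 without overlap, and Gpd1, Agpat2 and Dgat2 at 1.22, 0.73 and 0.98 with overlap.

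**Figure D4:**
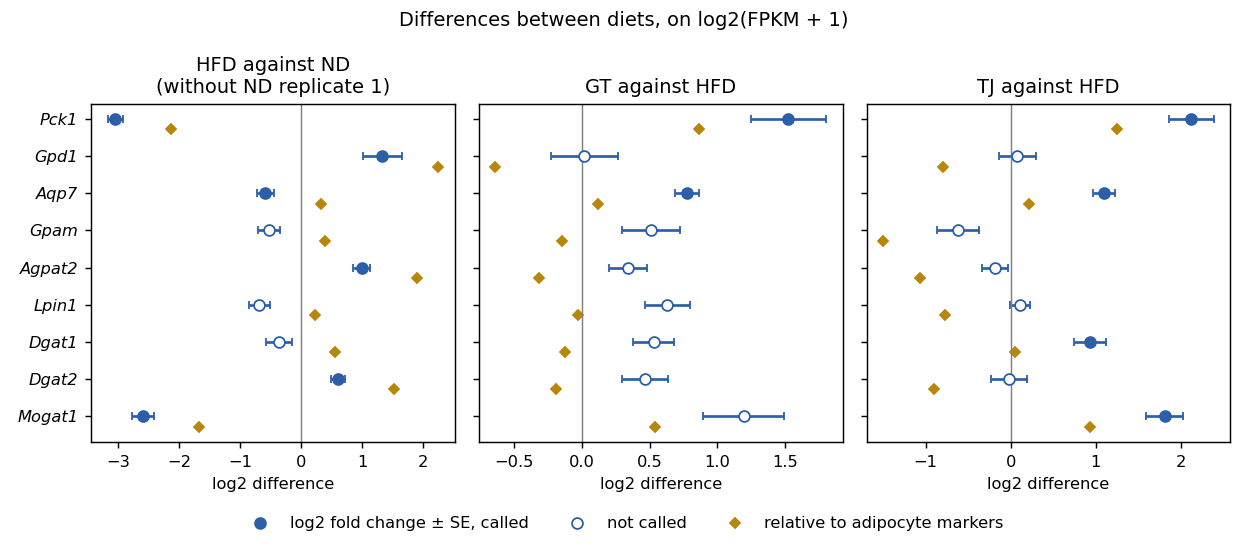
Log2 fold changes on log2(FPKM + 1) with SE for the 9 genes in 3 comparisons (circles, filled where the gene was a DEG), and the log2 differences relative to the mean of 10 adipocyte markers (diamonds). In TJ against HFD, Pck1 and Mogat1 stood at 2.13 and 1.81 and at 1.25 and 0.93 relative to the markers, while Aqp7 and Dgat1 stood at 1.10 and 0.94 and at 0.22 and 0.05.

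The genes whose log2 levels resembled those of Pck1 most closely over the 12 libraries, among 10141 genes averaging 5 FPKM or more, were Nrg4 (Pearson r = 0.99), Amy1 (0.99) and Ivd (0.98). For Mogat1 they were Art3 (0.98), Cyp2e1 (0.98) and Eci3 (0.97), and for Aqp7 Rtn2 (0.98), Nol3 (0.97) and Gstm4 (0.96). Over the 11 libraries other than ND replicate 1 the closest 3 were Cyp2e1 (0.99), Mogat1 (0.99) and Art3 (0.98) for Pck1, Pck1 (0.99), Amy1 (0.98) and Eci3 (0.98) for Mogat1, and Rtn2 (0.98), Fam213a (0.98) and Phgdh (0.97) for Aqp7. Between members, r was 0.96 for Pck1 and Mogat1 over 12 libraries and 0.99 over the 11 without ND replicate 1, where it was 0.92 for Dgat1 and Aqp7 and 0.79 for Dgat2 and Agpat2. These values describe 12 or 11 libraries that share their groups and cell composition, so no p is given.

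Of 19 other enzymes of triglyceride synthesis, 16 had a mean of 1 FPKM or more and were tested in TJ against HFD, where 1 was upregulated and 2 downregulated, with a median log2 fold change of -0.08. These 3 of 16 are near the 18.5% called among all tested genes, whose median was -0.14. The upregulated gene was Gpat3, the acyltransferase of the endoplasmic reticulum that shares the step of Gpam. Gpat3 was at 13.6, 62.5 and 61.0 FPKM in ND, 14.3, 14.9 and 12.4 FPKM in HFD, 29.5, 41.4 and 61.9 FPKM in GT and 46.5, 43.0 and 30.7 FPKM in TJ. All GT and TJ libraries were above all HFD libraries, as for Pck1 and Mogat1, and ND replicate 1 was within the HFD range. The log2 fold change of Gpat3 was 1.45 in TJ (adjusted p = 0.0196) and 1.55 in GT (adjusted p = 0.0379) against HFD. Gpat3 fell by 2.08 on the log2 scale from ND to HFD without ND replicate 1 (adjusted p = 0.00113), and with that library the log2 fold change was -1.38 (adjusted p = 0.476 in limma). Downregulated in TJ were Acsl4 (log2 fold change -1.04), a fatty acid activating enzyme, and Lclat1 (-0.88). In GT against HFD, 2 of 16 were upregulated, Gpat3 and Acsl1, the main acyl-CoA synthetase of fat (0.62), and 0 were downregulated, against 3.63% of all tested genes called in either direction. Without ND replicate 1, 1 of 18 rose from ND to HFD, Acsl5 (0.80), and 2 fell, Gpat3 and Agpat3 (-0.68), which is near the 15.4% of all tested genes. With that library, Acsl5 was at 1.18 and Agpat3 at -1.11, and neither passed.

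Among 15 other genes of glycerol 3-phosphate supply, of which 13 were tested, 0 were upregulated and 2 downregulated in TJ against HFD, near the 18.5% of all tested genes. The 2 were Gk, glycerol kinase, which fell by 1.67 on the log2 scale (adjusted p = 0.0269) from 8.92, 15.7 and 9.34 FPKM in HFD to 3.33, 1.43 and 4.10 FPKM in TJ, and Got2 (-1.02), the mitochondrial aspartate aminotransferase. Gk and Pck1 therefore went in opposite directions in TJ. In GT against HFD none of the 13 was a DEG in limma, against 3.63% of all tested genes. An unadjusted p-value under 0.05 was reached by 5 of 13 and by 3744 of all 12766 tested genes. Gk had the lowest log2 fold change, -0.96 (adjusted p = 0.0557). From ND to HFD without ND replicate 1, Tpi1 rose (1.03) and Pcx, which makes the oxaloacetate used by Pck1, fell (-0.71), 2 of 13 against 15.4% of all tested genes. With that library, Tpi1 was at 0.72, and the sign of Pcx turned, to 0.42 (SE 0.96, adjusted p = 0.818 in limma). Lpin2 and Gk2 were listed at 0 in all 12 libraries, as was the germ cell gene Gapdhs even in ND replicate 1, so a 0 in this table need not mean that a gene was not expressed.

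Of 18 regulators of these genes, 15 were tested in TJ against HFD and 0 were DEGs in limma, against 18.5% of all tested genes. An unadjusted p-value under 0.05 was reached by 6 of 15 and by 5299 of all 12807 tested genes. Pparg, the adipocyte nuclear receptor that activates Pck1 and Aqp7, had the highest log2 fold change, 0.64 (adjusted p = 0.0547). In GT against HFD, 0 of 16 regulators were DEGs in limma, against 3.63%, and Srebf1 was highest at 0.73 (adjusted p = 0.0903). An unadjusted p-value under 0.05 was reached by 8 of 16 and by 3744 of all 12766 tested genes. From ND to HFD without ND replicate 1, Cebpb was upregulated (1.25) and Insr (-1.26) and Fitm2 (-0.82) were downregulated, 3 of 17, near the 15.4% of all tested genes. With that library, Cebpb was at 0.72 and Insr at -0.29, and the sign of Fitm2 turned, to 0.23. Of 7 genes of lipolysis and its control, the process that releases the glycerol carried by Aqp7, 4 were upregulated in TJ against HFD, against 18.5% of all tested genes. They were Adrb3 (2.51), G0s2 (1.49), Lipe (1.14) and Plin1 (0.79), while Pnpla2 (0.64), Mgll (0.26) and Abhd5 (-0.24) did not pass. Lipolysis itself was not measured. In GT against HFD, 3 of the 7 genes were upregulated, G0s2 (0.59), Lipe (0.92) and Plin1 (0.97), against 3.63% of all tested genes. From ND to HFD without ND replicate 1, 5 of the 7 were downregulated, against 15.4%. With that library, these were Adrb3 at -0.98, Lipe at -0.44, Pnpla2 at -0.26 and G0s2 at -0.21, while Plin1 turned to 0.12. Lipe and Plin1, and among the regulators Pparg and Cebpa, are also in the adipocyte marker list, so their values are not separate from those of the markers. With all 3 ND libraries, and in TJ against GT and TJ against ND, 0 genes of these 4 lists were DEGs in limma.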

How the data were processed

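RNA-seq libraries were made by the authors from total RNA of eWAT with a TruSeq kit. The deposited table held FPKM computed by the authors with Cufflinks, after reads had been mapped with STAR. The submitters' processing notes name CASAVA 1.8.2, STAR 2.4.0 and Cufflinks 2.1.1. The methods name a human genome, the identifiers are mouse, and the authors' mouse build is not given in the sources used here. The authors called DEGs from counts, which were not used here. Names, positions and lengths came from GENCODE mouse release 21 (GRCm38), which named 22671 of 23474 identifiers. Depths of 10.0M to 19.5M fragments were inferred from the steps between FPKM values of 2315 genes with a single transcript and are approximate, so no counting intervals were given.

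Groups, taken from the sample titles, were tested in R 4.3.3 by limma 3.58.1 (lmFit, eBayes with a trend) on log2(FPKM + 1), using the 6 libraries compared and genes averaging 1 FPKM or more over them. A DEG needed p under 0.05 after Benjamini-Hochberg adjustment over all tested genes, and a fold change of 1.5 or more. Ratios were compared with exact permutation tests. The 5 comparisons were HFD against ND, GT and TJ against HFD, TJ against GT and TJ against ND. The fit was tested on simulated data.

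The genes named were the 9 members, the DEGs and the highest and lowest tested gene of each list by log2 fold change (not all are given), and the 3 genes most correlated with a member. The members and lists were chosen with earlier results of these data known. Lists were written from general knowledge. The labels give no batch.

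Alternatives left out each library in turn, blocked on the replicate number, fitted all 12 libraries together, scaled by median of ratios or quantiles, removed the trend with transcript length (loess, span 0.5), and used a pseudocount of 0.1, no filter or a filter at 5 FPKM. A fit of 11 libraries without ND replicate 1 was added after seeing the data. Only for HFD and ND did deviations from the group means correlate above 0.1 for every replicate number, at 0.56, 0.35 and 0.14 for numbers 1 to 3. Even there, not every library correlated best with the one of its own number, and no source says what a number shares. ND and HFD replicate 1 both had testis germ cell markers, at 98962 and 2048 FPKM, and their part in the 0.56 was not tested.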

Additional observations from a re-analysis of the deposited data

How the results depend on the processing

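The limits are set by 3 libraries a group, by ND replicate 1 and by FPKM values without counts. Of the alternatives for the log2 fold changes of the 9 genes over 5 comparisons, 590 kept direction and side of the threshold, 37 lost a call, 24 gained one and 24 changed sign. The cause of these changes was not tested, except that fits with fewer libraries have fewer degrees of freedom.

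With all 12 libraries sharing the spread, the number of members called was 2 for HFD against ND, 0 for GT against HFD (main 2) and 0 for TJ against HFD (main 4), where 1131, 1 and 1 of all tested genes were called. With the 11 libraries without ND replicate 1 it was 6, 1 for GT against HFD, 1 for TJ against GT and 3 for TJ against ND, where 2656, 139, 247 and 2217 of all tested genes were called. For GT against HFD it was also 0 without a filter, 3 at a mean of at least 5 FPKM and 5 with the length trend removed, with 5, 564 and 681 of all tested genes called. Leaving out each library in turn gave 0 to 6 members for HFD against ND, 0 to 4 for GT against HFD, 0 to 5 for TJ against HFD and 0 for TJ against GT and for TJ against ND, while the calls among all tested genes ran from 0 to 2098, 4 to 1107, 0 to 3412, 4 to 81 and 0 to 1148. The replicate block, for which a pairing by number was not established, left 0 members for HFD against ND and changed 2 to 0 for GT against HFD. It called 0 and 5 of all tested genes, against 255 and 464 without it. TJ against HFD kept its 4 members under the replicate block, which called 1198 of all tested genes, and TJ against GT and TJ against ND kept 0. For Dgat1 in TJ against HFD the adjusted p was 0.0551 without a filter.

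Signs changed as follows. Gpam against ND was -0.53 in HFD and -1.15 in TJ with the 11 libraries, and -0.053 in TJ with median-of-ratios scaling. With the 11 libraries, TJ against ND was -0.78 for Mogat1 and -0.92 for Pck1. Dgat2 in TJ against HFD was 0.075 with median-of-ratios scaling and 0.022 with the length trend removed. With a library left out, Gpam ranged from -0.53 to 1.35 in HFD and from -1.15 to 0.73 in TJ against ND, Mogat1 from -0.78 to 0.72 and Pck1 from -0.92 to 1.46 in TJ against ND, and Dgat2 from -0.18 to 0.20 in TJ against HFD. Gpd1 ranged from -0.21 to 0.22 in GT against HFD, from -0.051 to 0.28 in TJ against HFD and from -0.088 to 0.29 in TJ against GT. The log2 Dgat2 to Dgat1 ratio ranged from 0.97 to 2.16 for HFD against ND and from -1.21 to -0.62 for TJ against HFD, at an exact permutation p of 0.2, the smallest for 3 against 2. Over all tested genes, the median of TJ against HFD moved on the log2 scale from -0.14 to 0.03 with quantile normalization, and the same 4 members were called.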

Other observations

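Some genes of the related lists, chosen here after their values were seen, were high in libraries with testis transcripts, whose 10 germ cell markers summed to 98962 FPKM in ND replicate 1, 2965 FPKM in ND replicate 3 and 2048 FPKM in HFD replicate 1. Gpat2, a glycerol 3-phosphate acyltransferase, was at 14.5, 3.82 and 1.36 FPKM in these libraries and at most 0.21 FPKM in the others. Agpat1 was at 372 FPKM in ND replicate 1 and 27.6 to 57.3 FPKM elsewhere, and Bscl2, which encodes seipin, at 662 FPKM against 127 to 181 FPKM. Gpd2, the mitochondrial partner of Gpd1, was at 80.9, 14.6 and 91.8 FPKM in ND, 15.9, 10.2 and 6.29 FPKM in HFD and 4.01 to 7.03 FPKM in GT and TJ. Among the 9 members, Dgat1 and Agpat2 had their highest ND value in ND replicate 1, at 176 and 94.6 FPKM, while its adipocyte markers were the lowest of all libraries. The part of testis tissue in these values was not tested.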
